A study of Mus musculus with 6 samples.

Results

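A set of 10 immediate early genes was followed library by library in isolated mouse pancreatic islets: Fos, Fosb, Fosl2, Jun, Junb, Jund, Egr1, Atf3, Ier2 and Nr4a1. They were chosen by name, as genes that respond to cell activity and tissue dissociation, and are 10 of the 53670 genes in the deposited count table. All 10 passed the filter on low counts, which left 15915 genes to test. The WT group held 3 libraries from Paupar +/+ mice and the KO group 3 libraries from Paupar -/- mice, with no other allele or agent named. Paupar is a long noncoding RNA gene beside Pax6. All mice were 6 weeks old, and the islets of both groups were released with collagenase, so a response to isolation would be shared by every library. No library precedes isolation and no time after it is given, so the data show how these transcripts varied between islet preparations, not how far isolation moved them. No source used here gives the strain, the sex or how the deletion was made. Nor do the labels say whether a library came from 1 animal or a pool, so what a p-value weighs is the variation among these 6 libraries, which may be technical.

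Immediate early genes are transcribed within minutes of a stimulus without new protein synthesis, and their messenger RNAs and proteins are short-lived. FOS proteins pair with JUN proteins through leucine zippers to form AP-1, a dimeric transcription factor. In islets these genes answer to glucose, calcium and cyclic AMP signals, and in many tissues they also answer to mechanical and enzymatic dissociation. MAP kinases, serum response factor with its ternary complex partners, and CREB carry the signal to their promoters, and dual-specificity phosphatases and RNA-destabilising proteins end it.

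The bases just before the start of 5 genes are shown because they hold TGACG, the core of the cyclic AMP response element. Those of Jund are shown because its level hardly varied. Jund, Jun and Fosl2 held no TGACG in the bases searched, and Jun and Fosl2 are not shown. A link between the motif and how far a level varied was not tested. Capitals mark TGACG or its reverse complement CGTCA and, on the gene's own strand, TATAAA. Each stretch is 130 bases long and ends at the base before the start, read 5′ to 3′ on the gene's strand, from RefSeq on GRCm38.p6. The positions are chr12:85473760-85473889 (plus strand) for Fos, chr7:19310046-19310175 (minus) for Fosb, chr8:84978749-84978878 (minus) for Junb, chr1:191183334-191183463 (minus) for Atf3, chr15:101266716-101266845 (plus) for Nr4a1 and chr8:70697609-70697738 (plus) for Jund.
Fos: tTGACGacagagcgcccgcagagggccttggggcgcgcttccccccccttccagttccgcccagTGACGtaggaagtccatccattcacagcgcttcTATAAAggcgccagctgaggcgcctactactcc
Fosb: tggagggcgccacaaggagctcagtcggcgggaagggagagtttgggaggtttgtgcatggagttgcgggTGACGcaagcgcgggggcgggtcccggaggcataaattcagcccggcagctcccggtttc
Junb: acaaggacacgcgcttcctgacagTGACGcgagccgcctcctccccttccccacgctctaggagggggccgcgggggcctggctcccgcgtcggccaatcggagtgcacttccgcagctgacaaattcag
Atf3: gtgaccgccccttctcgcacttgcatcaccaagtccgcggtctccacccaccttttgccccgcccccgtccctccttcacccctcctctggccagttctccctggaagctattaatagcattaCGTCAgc
Nr4a1: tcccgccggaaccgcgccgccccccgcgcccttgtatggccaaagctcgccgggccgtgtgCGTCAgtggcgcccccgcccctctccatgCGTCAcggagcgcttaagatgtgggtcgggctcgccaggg
Jund: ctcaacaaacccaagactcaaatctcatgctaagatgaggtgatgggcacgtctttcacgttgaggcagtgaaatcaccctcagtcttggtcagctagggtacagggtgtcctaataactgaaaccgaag

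Of the 10 genes, 8 had an entry among the RefSeq promoters, and Egr1 and Ier2 had none. TGACG was added to the motifs after these promoters were seen, so the shares given for it are no test. The 5 genes holding it had 58.4% to 74.4% GC over the 250 bases before the start, and entries were not matched for GC. Over these 250 bases, TGACG was found on either strand in 5 of the 8 and in 17.8% of all 32841 entries. Fos held it at 129 and at 66 bases before the start, and Nr4a1 held 4 copies, 2 of them upstream of the stretch shown. In Fos TATAAA began 33 bases before the start, and 7.59% of all entries held that motif on the gene strand. None of the 8 held the complete element TGACGTCA (1.55% of all entries), the AP-1 element TGANTCA (6.75%) or a CArG box, the site of serum response factor (1.47%), within this window. These are matches of letters, with no measure of binding.

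Total counts ran from 25733194 to 27285009 per library, and a floor of 3 counts was worth 0.110 to 0.117 CPM, counts scaled to a library total of 1e6 reads. Paupar had 111 to 252 counts in the WT libraries and 0 to 4 in the KO libraries. Libraries of the same genotype differed by more than counting noise (chi-square per degree of freedom over genes of 25.004 to 81.8 for pairs within a genotype). KO replicate 1 stood apart from the other KO libraries in sex-linked transcripts: Xist had 0 to 6 counts in the WT libraries and KO replicate 1, and 1120 and 862 in KO replicates 2 and 3, while Ddx3y had 1316 to 1830 counts in the former and 2 and 0 in the latter. Genotype cannot therefore be told apart from these transcripts in KO replicates 2 and 3, and the median of each gene list is also given without KO replicate 1 and with it as the single KO library. Marker genes of beta cells took 21.5%, 24.4% and 24.5% of counts in WT replicates 1, 2 and 3. In KO replicates 1, 2 and 3 they took 27.6%, 27.4% and 27.5%, so each KO library lay above each WT library in this sum. Of the 10 beta cell markers, 7 were higher and 3 lower in KO, with 0 called.

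Levels below are CPM scaled by TMM, edgeR's correction for library composition. Most immediate early transcripts were highest in KO replicate 1, next in WT replicate 3 or KO replicate 2, and low in the other 3 libraries. The 2 genotypes overlapped in 9 of the 10 genes, and they did not overlap in 23.4% of all tested genes. No difference between the genotypes in the 10 genes exceeded the spread of replicates by the test used.

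In the FOS family, Fos and Fosb varied most. Fos, the founding partner in AP-1, stood at 42.1, 41.5 and 98.7 CPM in WT and at 193, 111 and 43.1 CPM in KO, with libraries always given in the order of their replicate numbers. The highest and lowest KO libraries were 4.49-fold apart, and KO replicate 3 lay beside WT replicates 1 and 2. Fosb, a close homologue, stood at 2.21, 2.01 and 6.34 CPM in WT and at 13.7, 5.31 and 2.38 CPM in KO. It moved with Fos, since its counts were 4.80% to 7.09% of those of Fos in all 6 libraries. Fosl2, which encodes FRA-2, a FOS protein induced later and kept longer, stood at 9.88, 9.48 and 14.1 CPM in WT and at 9.59, 9.89 and 7.17 CPM in KO. It was highest in WT replicate 3 and did not share the peak in KO replicate 1.

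In the JUN family, Jun and Junb showed the same high library and Jund did not. Jun stood at 29.0, 31.2 and 47.6 CPM in WT and at 66.4, 30.4 and 25.8 CPM in KO. Junb, which can dampen JUN activity, stood at 24.5, 24.5 and 33.5 CPM in WT and at 58.5, 31.2 and 17.3 CPM in KO. In both genes KO replicate 1 was the highest library and KO replicate 3 the lowest. Jund, the JUN gene that is constitutively transcribed in most cells, stood at 31.5, 30.1 and 29.9 CPM in WT and at 29.2, 27.7 and 24.5 CPM in KO. Its highest and lowest libraries were 1.28-fold apart, and it was the single gene of the set whose groups did not overlap, with KO as the lower group. Such separation toward lower KO levels was seen for 12.1% of the genes tested.

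Among the other genes, Egr1, a zinc finger transcription factor gene, stood at 28.5, 30.6 and 54.0 CPM in WT and at 83.2, 46.9 and 26.9 CPM in KO. Ier2, which encodes a small nuclear protein, stood at 16.2, 14.2 and 20.4 CPM in WT and at 34.2, 19.6 and 9.99 CPM in KO. Both were highest in KO replicate 1 and lowest in KO replicate 3, like Jun and Junb. Atf3, a stress-induced gene of the ATF/CREB group, was scarce, its WT counts being 17, 8 and 32 and its KO counts 83, 21 and 23. The count of 8 has a 95% exact Poisson interval of 3.45 to 15.8 and that of 83 one of 66.1 to 103, so KO replicate 1 lay above WT replicate 2 beyond counting error. Nr4a1, an orphan nuclear receptor gene, stood at 19.3, 13.5 and 33.3 CPM in WT and at 22.2, 18.2 and 11.01 CPM in KO. Its highest library was WT replicate 3, and KO replicate 1 came next.

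**Figure D1:**
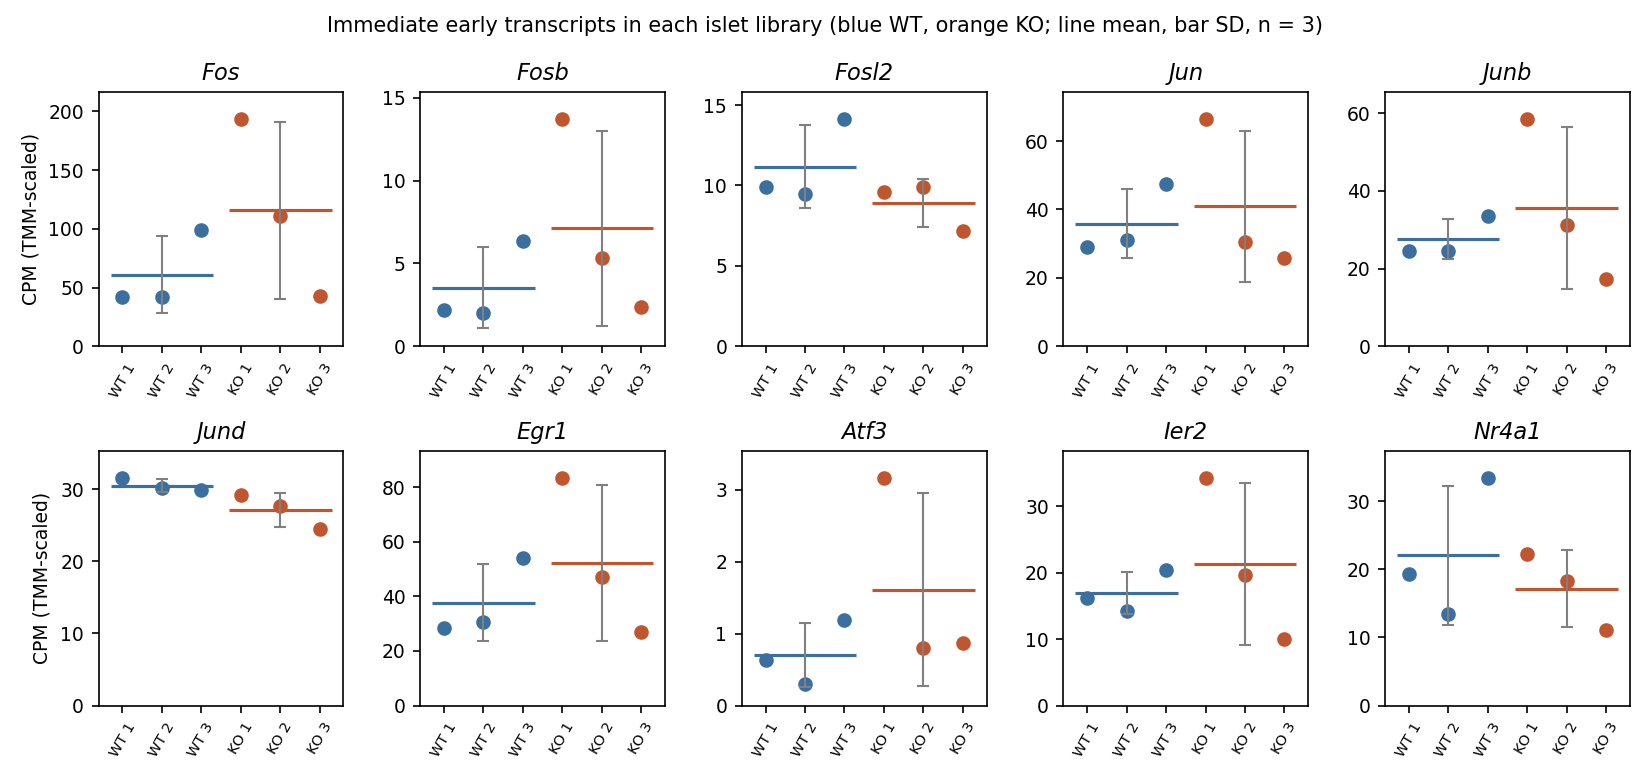
TMM-scaled CPM of each immediate early transcript (vertical axes, linear from 0) in the 3 WT libraries (blue) and 3 KO libraries (orange). Each point is a library, lines are group means and bars SD. KO replicate 1 is the highest point in 7 of the 10 panels, and Jund is the flattest.

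KO replicate 1 was the highest library in 7 of the 10 genes, Fos, Fosb, Jun, Junb, Egr1, Atf3 and Ier2, against 15.4% of all tested genes. It exceeded KO replicate 3 at least 2-fold in 8 genes, all but Fosl2 and Jund, against 6.65% of all tested genes. The order KO replicate 1, then 2, then 3 held in 8 genes, all but Fosl2 and Atf3, against 19.7% of all tested genes. Within WT, replicate 3 was the highest library in 9 genes, all but Jund, where 36.2% of all tested genes had it so. Averaged over the 10 genes, the deviation from the mean of all libraries (log2 CPM) was -0.32, -0.49 and 0.40 in the WT libraries and 0.89, 0.089 and -0.57 in the KO libraries. The highest and the lowest of these 6 values both belonged to KO libraries. Between KO replicates 2 and 3, the level in replicate 2 over that in replicate 3 ranged from 0.925 for Atf3, 1.13 for Jund and 1.18 for Jun to 1.96 for Ier2, 2.23 for Fosb and 2.57 for Fos. The part of the sex-linked difference in these levels was not tested.

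**Figure D2:**
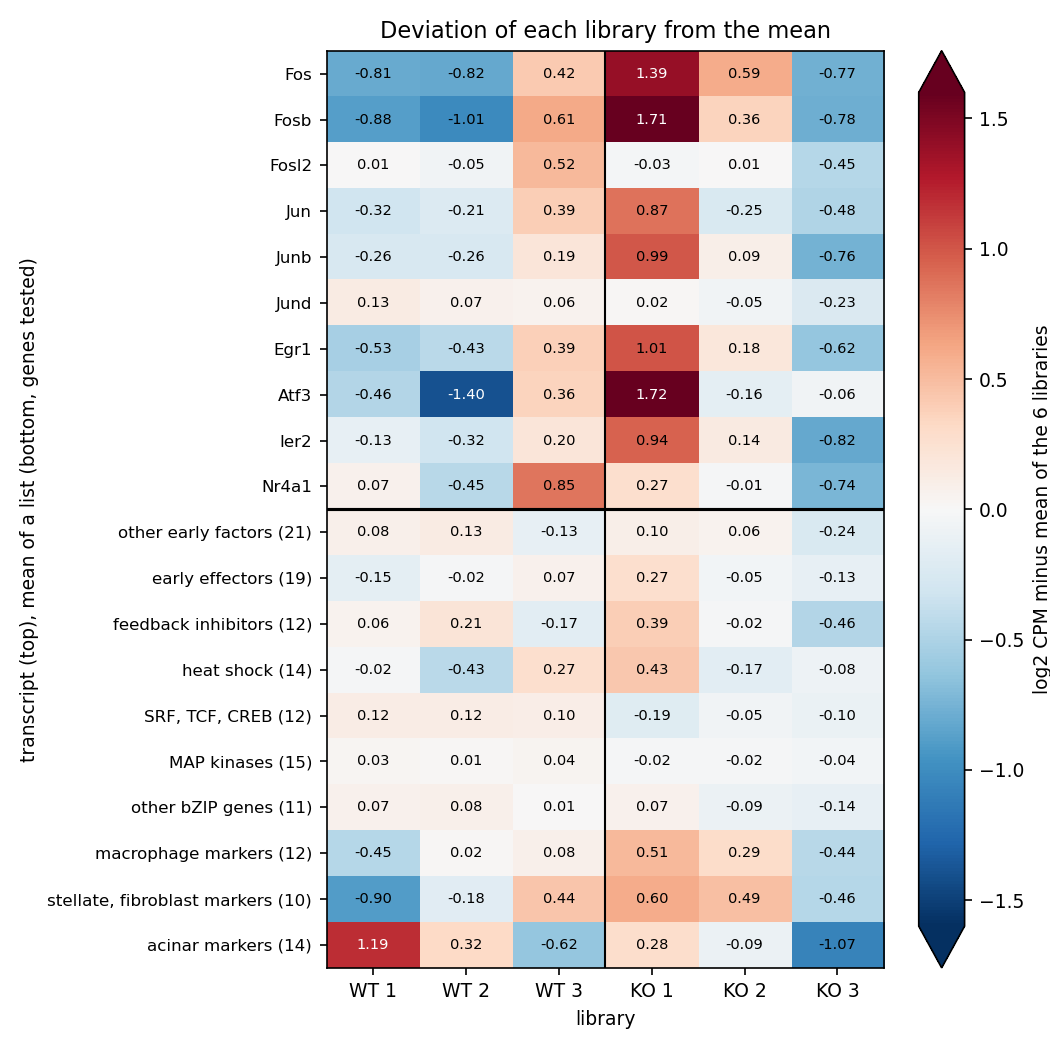
Log2 CPM of each library minus the mean of the 6 libraries, for each immediate early transcript (rows above the line) and as the mean over the tested genes of 10 other lists (rows below, with the number of genes). Columns are libraries and colour runs from blue (below the mean) to red (above). Beside the set's average of 0.89 in KO replicate 1 stand 0.60 for stellate and fibroblast markers, 0.51 for macrophage markers, 0.43 for heat shock genes, 0.39 for feedback inhibitors and -0.023 for MAP kinases.

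The spread between libraries of the same genotype was wide for these transcripts. The pooled SD within groups (log2 CPM) had a median of 0.65 over the 10 genes, against 0.18 over all tested genes and 0.16 over the 14047 with a mean of at least 1 CPM. It was 1.09 for Fosb, 0.97 for Atf3 and 0.92 for Fos, with Fos, the lowest of these, at the 96.05th percentile of tested genes. For Jun, Junb, Egr1, Ier2 and Nr4a1 it lay between 0.58 and 0.68, at or above the 88.9th percentile. Fosl2 had an SD of 0.29 and Jund one of 0.096, the latter at the 19.9th percentile. The highest library exceeded the lowest by a median of 3.24-fold over the 10 genes and 1.47-fold over all tested genes.

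**Figure D3:**
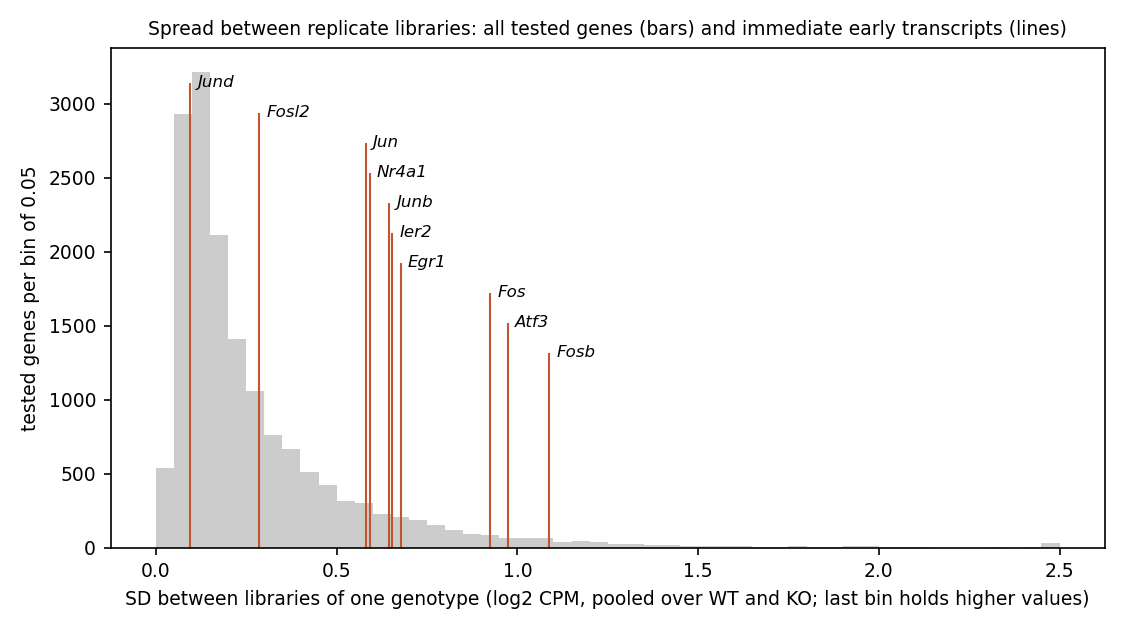
Histogram of the SD of log2 CPM between libraries of the same genotype for all tested genes (grey bars, last bin holding higher values), with a line for each immediate early transcript. Line heights carry no value. Jund (0.096) lies within the bulk of genes, and Fos, Atf3 and Fosb (0.92 to 1.09) lie in the upper tail.

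Against this spread, no difference between KO and WT passed edgeR's quasi-likelihood test in any of the 10 genes (adjusted p = 0.388 to 0.843, adjusted by Benjamini-Hochberg over all tested genes). None reached an unadjusted p of 0.05, where 16.4% of all tested genes did, and 0 of 10 were called at an adjusted p below 0.05, where 0.17% of all tested genes were, each of them lower in KO. DESeq2 called 0 of the 9 genes that it gave an adjusted p, where it called 553 of 12618 genes. With limma-voom 0 of the 10 were called, as were 0 of all 15915 genes, so that result is not particular to this set. Both tools had 0 of the 10 at an unadjusted p below 0.05. Over all genes DESeq2 had 1367 lower and 1105 higher in KO at that level, and limma-voom 1477 and 1122. The log2 fold change of KO over WT was positive in 7 genes and negative in 3, with a median of 0.35, against a median of 0.0023 over all tested genes. Fos went from 60.8 ± 32.9 to 116 ± 75.2 CPM (SD, n = 3 each). Its log2 fold change was 0.93 (SE 0.57, edgeR adjusted p = 0.468), with a 95% interval from -0.41 to 2.27. That interval is wide, and it holds both lower and higher levels in KO.

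Fosb (1.02, SE 0.70) and Atf3 (1.18, SE 0.70) had the largest fold changes and the widest errors. Egr1 was at 0.47 (SE 0.42), Junb at 0.37 (SE 0.40), Ier2 at 0.33 (SE 0.40) and Jun at 0.19 (SE 0.38). Fosl2 was at -0.33 (SE 0.20) and Nr4a1 at -0.36 (SE 0.37). Jund had the narrowest interval: it went from 30.5 ± 0.864 to 27.1 ± 2.39 CPM (SD, n = 3 each), a log2 fold change of -0.17 with a 95% interval from -0.37 to 0.036 (edgeR adjusted p = 0.388). The intervals of all 10 genes include 0.

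The direction of the median rested on KO replicate 1. Without it the median fell from 0.35 to -0.19, 3 genes were positive in place of 7, and Jun (-0.35), Junb (-0.18), Egr1 (-0.031) and Ier2 (-0.19) turned negative. Fos (0.34), Fosb (0.13) and Atf3 (0.24) stayed positive. KO replicate 1 alone against the WT libraries had a median of 1.05, with Fos at 1.67, Jun at 0.89 and Jund at -0.063, and there 7 of the 10 genes had an unadjusted p below 0.05 in edgeR, where 7.07% of all tested genes did. None of the 7 passed adjustment (lowest adjusted p = 0.623), and that fit takes its spread from the WT libraries only. Without WT replicate 3 the median was 0.52, with 2 of the 10 genes at an unadjusted edgeR p below 0.05 and 0 called. Of all 16266 genes tested there, 1882 lower and 1493 higher in KO reached that p, and 89 were called. Without KO replicate 3 the median was 0.69, with 3 of the 10 genes at an unadjusted edgeR p below 0.05 and 0 called. In that fit 1314 lower and 718 higher of 16276 genes reached it, and 0 were called.

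**Figure D4:**
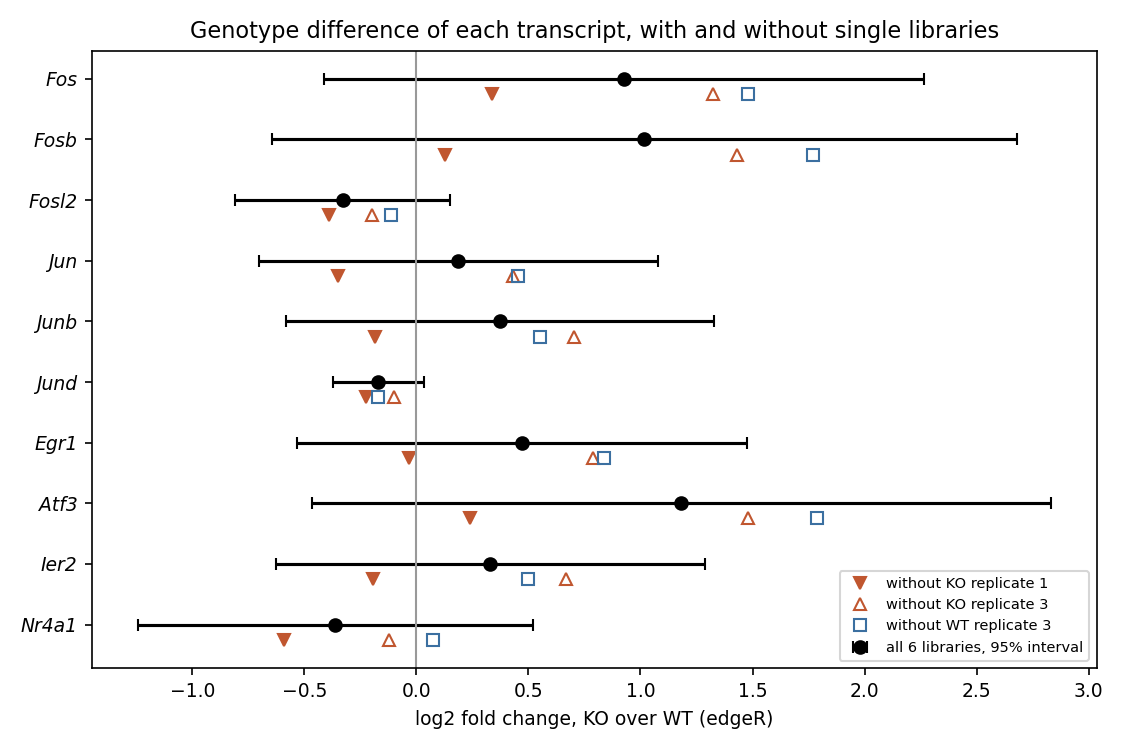
Log2 fold change of KO over WT (horizontal axis) of each immediate early transcript with its 95% interval from edgeR (black), and the value after leaving out KO replicate 1 (filled triangles), KO replicate 3 (open triangles) or WT replicate 3 (squares). All 10 intervals cross 0, and Jun, Junb, Egr1 and Ier2 move below 0 without KO replicate 1.

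Per kilobase of exon (RPKM, from exonic lengths in GENCODE vM1 on mm9), Fos was the most abundant of the 10 transcripts in every library and Junb the next. Fos ranged from 17.7 to 82.1 RPKM and Junb from 9.58 to 32.4. Jund, at 8.52 to 10.9 RPKM, came next after these in WT replicates 1 and 2 but was passed by Egr1, Ier2 and Jun in KO replicate 1. The level of Jund per length was 0.612 of that of Fos in WT replicate 1, 0.593 in WT replicate 2 and 0.465 in KO replicate 3, and 0.123 in KO replicate 1. Egr1 (8.66 to 26.8), Ier2 (6.57 to 22.5) and Jun (8.10 to 20.8) overlapped in range and changed places between libraries, so their order does not exceed the spread. Nr4a1, at 4.45 to 13.5 RPKM, lay below these except in WT replicate 3, where it passed Ier2 and Jund. It was followed by Fosl2 (1.22 to 2.41) and Fosb (0.535 to 3.65), which changed places in KO replicate 1. Atf3 was lowest in every library, at 0.150 to 1.59 RPKM.

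Across the 6 libraries the 7 genes that peaked in KO replicate 1 ran in parallel, as a description of 6 libraries in which each gene shares the depth and cell makeup of its library. Their 21 pairwise Pearson correlations of log2 CPM ranged from 0.73 to 0.99, with a median of 0.90, but these 7 were grouped by their values. Over all 45 pairs of the 10 genes the median was 0.71. Fos and Fosb had 0.99, Fos and Jund 0.066, and Fosl2 and Nr4a1, both highest in WT replicate 3, 0.92. The genes outside the set whose profile was most like the mean of the 10 were Ier3 (0.99), St8sia6 (0.98), Prrx1 (0.98), Bag3 (0.97) and Rpl38-ps2 (0.97), among 12334 candidates. Of these candidates 0.665% had a correlation above 0.9 with that mean, and with 6 libraries high values arise readily. Ier3, itself an immediate early gene, stood at 1.83, 1.78 and 2.82 CPM in WT and at 3.58, 2.18 and 1.77 CPM in KO.

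Other immediate early transcription factor genes did not all follow this pattern. Of 21 tested, 0 passed in either direction in edgeR, 10 had positive and 11 negative fold changes (median -0.0054), and 7 were highest in KO replicate 1. The median was -0.11 without that library and 0.19 with it alone. Fosl1, the remaining FOS gene, stood at 0.860, 1.45 and 1.48 CPM in WT and at 0.875, 1.34 and 1.24 CPM in KO. Egr3, a relative of Egr1, was high elsewhere, at 7.74, 4.16 and 0.964 CPM in WT and at 3.08, 1.22 and 1.43 CPM in KO. Egr2 was highest in WT replicate 2 (2.27 CPM) and lowest in WT replicate 3 (0.556 CPM). Members of the EGR family thus differed in which library was high.

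Among effectors of the early response, 0 of 19 tested genes passed, 11 were positive and 8 negative (median 0.083), and 8 were highest in KO replicate 1. Their median was -0.069 without that library and 0.25 with it alone. Arc, a neuronal activity gene, stood at 1.38, 1.78 and 2.74 CPM in WT and at 3.24, 2.14 and 1.32 CPM in KO, with the 6 libraries in the same order as for Egr1. Its counts were only 37, 48 and 74 in WT and 85, 56 and 35 in KO, so counting error could change the order of close libraries. Cyr61, which encodes a matrix-associated growth regulator, rose to 12.9 CPM in KO replicate 1 from 2.34 to 6.23 CPM in the other 5 libraries, with no call between genotypes (log2 fold change 0.95, SE 0.49, edgeR adjusted p = 0.388). Of 12 feedback inhibitors 0 passed, 4 were positive and 8 negative (median -0.072), and 5 were highest in KO replicate 1. Here the median was -0.24 without that library and 0.19 with it alone. Dusp1, a phosphatase gene that switches off MAP kinases, stood at 18.0, 21.4 and 27.1 CPM in WT and at 50.7, 33.0 and 23.3 CPM in KO. Dusp2, another such phosphatase gene, was instead highest in WT replicate 2 (9.82 CPM) and lowest in WT replicate 3 (1.37 CPM), and Dusp4 ranged from 4.87 to 11.4 CPM.

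The genes that carry signals to these promoters varied less. Of 15 MAP kinase pathway genes 0 passed (median log2 fold change -0.077, 5 positive, 10 negative, -0.048 without KO replicate 1 and -0.044 with it alone). The kinase gene Mapk3 ranged from 183 to 264 CPM and Mapk8 from 25.2 to 28.7 CPM. Of 12 serum response factor, ternary complex and CREB genes 0 passed, although 10 were negative (median -0.27) and 5 had each KO library below each WT library, against 12.1% of all tested genes. The median was -0.20 without KO replicate 1 and -0.34 with it alone. Srf, the serum response factor gene, was one of these, at 36.2, 45.1 and 35.9 CPM in WT and at 32.7, 29.8 and 35.4 CPM in KO (log2 fold change -0.26, SE 0.12, edgeR adjusted p = 0.329). With offsets for exonic length and GC content the median of this list was -0.069. Elk1, at 9.69 to 11.4 CPM, and Elk3, at 44.5 to 71.9 CPM, both ternary complex factor genes, overlapped between genotypes. Elk4, another such gene, named here after its values were seen, did not: it stood at 18.7, 19.4 and 17.8 CPM in WT and at 11.8, 11.8 and 13.4 CPM in KO (log2 fold change -0.60, SE 0.095, edgeR adjusted p = 0.0840). None of these 12 genes was highest in KO replicate 1. Of 11 other bZIP genes that can pair with AP-1 proteins 0 passed (median -0.066, -0.082 without KO replicate 1 and 0.036 with it alone), with Atf2 at 96.7 to 128 CPM, Atf4 at 207 to 283 CPM and Atf7 at 30.7 to 38.6 CPM.

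Heat shock genes, another response to handling of tissue, shared the high library but not the low one. Of 14 tested 0 passed in edgeR, 9 were positive and 5 negative (median 0.067), and 10 were highest in KO replicate 1. Without that library the median was -0.11, and with it alone 0.26. Hspa1a and Hspa1b, near-identical inducible HSP70 genes whose reads may be split, stood at 1.87, 0.706 and 4.15 CPM and at 2.66, 1.41 and 7.67 CPM in WT. In KO they stood at 5.56, 1.99 and 1.92 CPM and at 9.74, 2.64 and 3.09 CPM, so KO replicate 1 and WT replicate 3 were the top libraries for both. Hspa8, the constitutive relative, ranged from 703 to 986 CPM. Of 16 inflammatory and oxidative genes of islet isolation 10 were tested, 0 passed and 9 were positive (median 0.21, 0.18 without KO replicate 1 and 0.28 with it alone). Of the 10 tested, 4 were highest in KO replicate 1, against 15.4% of all tested genes. The chemokine genes Cxcl10 (0.297 to 1.55 CPM) and Cxcl16 (3.14 to 5.34 CPM) were not among these. Other chemokine genes of the list, Ccl2, Ccl7, Cxcl1 and Cxcl2, were too scarce to be tested. The cytokine gene Il1b stood at 3.05 CPM in KO replicate 1 and at 0.445 to 0.898 CPM in the others.

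Markers of other cells of the preparation also varied with the libraries. Of 12 macrophage markers 5 were highest in KO replicate 1, and their summed level was 212 to 254 CPM in WT and 310, 231 and 167 CPM in KO. Of 10 stellate cell and fibroblast markers 4 were highest there, and their sum was 211 to 341 CPM in WT and 269 to 370 CPM in KO. Acinar markers summed to 76285, 40746.5 and 23918 CPM in WT and to 47107, 33260 and 18028 CPM in KO. Of 14 acinar markers 0 were highest in KO replicate 1. Yet KO replicate 1 exceeded KO replicate 3 at least 2-fold in 13 of them, against 6.65% of all tested genes. The order KO replicate 1, then 2, then 3 held in 12 of the 14, against 19.7% of all tested genes. In edgeR 0 markers of any list were called, where 0.17% of all tested genes were. Each KO library lay above each WT library in 11.3% of all tested genes. Among markers this held for 5 of 11 endothelial, 4 of 10 beta cell and 1 of 10 stellate. The reverse held in 12.1%, and in 4 of 8 alpha cell and 2 of 8 duct markers. Macrophage and acinar markers all overlapped. Endothelial markers summed to 413 to 522 CPM in WT and 591 to 621 CPM in KO. Those of alpha cells summed to 35819 to 46132 CPM in WT and 32399 to 37456 CPM in KO. Median log2 fold changes were 0.39 for endothelial, -0.36 for duct, 0.29 for beta cell and -0.31 for alpha cell markers. They were 0.26, 0.46 and -0.52 for the macrophage, stellate and acinar lists. Without KO replicate 1 these medians were 0.39 for endothelial, -0.47 for duct, 0.29 for beta, -0.28 for alpha, 0.16 for macrophage, 0.14 for stellate and -0.87 for acinar markers. With it alone they were 0.37, -0.036, 0.096, -0.38, 0.42, 0.39 and -0.014 in the same order. Without WT replicate 1 the acinar median was 0.054. No listed marker of these cells that the table holds was at 0 in all libraries. The part of these cells in the levels of immediate early transcripts was not tested, and in such bulk samples fewer expressing cells and less RNA per cell cannot be told apart.

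In GENCODE vM1 on mm9, Fos lies at chr12:86814840-86818223 (plus strand, 4 exons), Fosb at chr7:19888070-19895394 (minus, 4 exons) and Fosl2 at chr5:32438845-32460204 (plus, 4 exons). Jun lies at chr4:94715725-94718913 (minus), Junb at chr8:87500811-87502617 (minus) and Jund at chr8:73221638-73224515 (plus), each with 1 exon. Atf3 lies at chr1:192994175-193007219 (minus, 4 exons), Ier2 at chr8:87185230-87186751 (minus, 1 exon) and Nr4a1 at chr15:101097277-101105223 (plus, 7 exons), and Egr1 on chromosome 18 (plus, 2 exons). Counts are given per gene, and these 10 genes were short in exonic length at the median. Their median exonic length was 2676 bp against 3524 bp for tested genes with annotation, and 4 of them, Jun, Junb, Jund and Ier2, have a single exon, against 5.73% of those genes. Their median exonic GC content was 55.9% against 49.9%. In GENCODE vM1, transcripts on the opposite strand overlap parts of Jun (BC042782), Jund (Gm11175) and Egr1 (Gm17507), and whether the counting used strand is not given in the sources used here, so reads of such partners may be included or lost. With offsets for length and GC content the median log2 fold change of the 10 genes was 0.41, Jund moved from -0.17 to -0.029, and 0 were called.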

How the data were processed

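Islet RNA of 3 WT and 3 KO samples was made into TruSeq libraries, per the labels' protocols. Among the tools in the submitters' processing notes are HISAT2 2.1.0, HTSeq, CASAVA 1.8.2 and DESeq2, with mouse build mm9. No source used here gives the annotation, counting options or use of strand. The deposited table holds raw read counts that the authors had not normalized, and its columns were matched to samples by name.

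The main test was the quasi-likelihood test of edgeR 4.0.16 in R 4.3.3, after filterByExpr by genotype and TMM scaling, over all 15915 tested genes. P-values were adjusted by Benjamini-Hochberg and called below 0.05. SE is the absolute log2 fold change over the root of F. Log2 CPM used a prior count of 2. Floors and Poisson intervals cover counting error only. Lengths came from GENCODE vM1 on mm9. The procedure was tested on simulated data. Alternatives were DESeq2 1.42.0, limma-voom (limma 3.58.1), smooth length and GC offsets (mgcv), other scalings and filters, single libraries left out, KO replicate 1 alone, a replicate block and a threshold of 0.1.

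The 10 genes and all lists were chosen with earlier results of these data known. Named are all 10, the 5 genes of at least 1 CPM most like their mean profile and, in each other list of response or signalling genes, called members or otherwise the first 3 tested as written. Marker lists are given by counts, sums and medians. The values of 1 gene named by this rule are not reported here. A planned comparison of proteins is not reported here. TGACG was added to the planned motifs after the promoters were seen. Plots came from matplotlib 3.10.9 under Python 3.11.15.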

Additional observations from a re-analysis of the deposited data

How the results depend on the processing

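None of the 10 genes was called under any of the 16 alternatives, DESeq2 giving no adjusted p for Atf3 and the filter of at least 1 CPM in 3 libraries removing it. With 1 library left out, log2 fold changes ranged from 0.34 to 1.48 for Fos, -0.35 to 0.46 for Jun, -0.18 to 0.70 for Junb, -0.031 to 0.84 for Egr1, -0.19 to 0.67 for Ier2 and -0.62 to 0.076 for Nr4a1. The negative ends of Jun, Junb, Egr1 and Ier2 came without KO replicate 1 and the positive end of Nr4a1 without WT replicate 3. With KO replicate 1 alone Nr4a1 was at 0.013. The cause was not tested. The median of the 10 ranged from -0.19 to 0.69 with 1 library left out and was 1.05 with KO replicate 1 alone.

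Over all genes 27 were called, against 553 with DESeq2, 0 with limma-voom, 1 with length and GC offsets, 1 with KO replicate 1 alone, 132 at an adjusted p below 0.1, and 0 to 89 with 1 library left out, the 89 without WT replicate 3. Unadjusted p-values of limma-voom were below 0.05 for 1477 genes lower in KO and 1122 higher. With the replicate number as a block 0 genes were called (edgeR's unadjusted p was below 0.05 for 1482 genes with lower and 1077 with higher levels in KO), and the median of the 10 was 0.21. For each gene, the mean log2 CPM of the genotype was subtracted from each library. These deviations of same-numbered libraries correlated over genes at 0.18, 0.058 and 0.032, so the numbers were not taken to pair the samples. By this measure not every library correlated best with its own number.

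With KO replicate 1 alone, list medians were 0.19 for other early transcription factors, -0.34 for serum response factor, ternary complex and CREB genes, -0.044 for MAP kinases, 0.036 for other bZIP genes, and -0.036, 0.096 and -0.38 for duct, beta and alpha cell markers. With offsets they were -0.069 for serum response factor, ternary complex and CREB genes, 0.051 for MAP kinases and 0.20 for beta markers, and without the 10 most abundant genes in library sizes -0.092 for MAP kinases. With 1 library left out, medians changed sign for the acinar (-0.87 to 0.054), feedback (-0.24 to 0.11), heat shock (-0.11 to 0.11), effector (-0.069 to 0.15), early factor (-0.11 to 0.060) and bZIP (-0.11 to 0.024) lists. They ranged from 0.14 to 0.68 for stellate, 0.10 to 0.40 for macrophage, 0.29 to 0.48 for endothelial, -0.47 to -0.17 for duct, 0.21 to 0.31 for beta, -0.37 to -0.23 for alpha, 0.17 to 0.38 for inflammatory, -0.26 to -0.15 for serum response factor and -0.080 to -0.048 for MAP kinase lists. Depth limits Atf3, at 8 to 83 counts, more than the other 9 genes.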

Other observations

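Several transcripts outside the set also peaked in KO replicate 1 and were picked here after their values were seen. Ptgs2, the inducible cyclooxygenase gene, was too scarce to be tested, its WT libraries holding 2, 3 and 5 counts and its KO libraries 69, 10 and 2, in replicate order. Vwf, the von Willebrand factor gene of endothelial cells, stood at 0.524, 0.372 and 2.41 CPM in WT and at 11.9, 2.29 and 1.24 CPM in KO. Zfp36, which encodes an RNA-destabilising protein and belongs to the feedback inhibitors, stood at 26.4, 26.6 and 26.6 CPM in WT and at 58.1, 26.5 and 19.8 CPM in KO, so it shared the peak in KO replicate 1 but not the rise in WT replicate 3. Per1, a clock gene that is also induced early, was highest in WT replicate 3 at 92.99 CPM, against 28.0 CPM in each of the other WT libraries and 38.9 to 60.5 CPM in KO. None of these was called between genotypes.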
